A study of Caenorhabditis elegans with 2 samples.

Results

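The 49 genes described here encode subunits of the mitochondrial respiratory chain, ATP synthase and factors that assemble cytochrome c oxidase in Caenorhabditis elegans. They were chosen by gene name (nuo, nduf, gas-1, sdha, sdhb-1, sdhd-1, mev-1, isp-1, ucr, cyc, cox, atp and asg) from 19973 nuclear protein-coding genes in the Ensembl gene models. The rule uses names alone, but it was set with earlier results of these data known. By name, 13 belong to complex I, 5 to complex II, 7 to complex III, 2 to cytochrome c, 7 to complex IV and 7 to complex V. The remaining 8 are cox genes outside the structural cox-4 to cox-7C series, most of which are known for assembly of the oxidase, so the list is wider than the chain itself. All 49 are nuclear genes, and the 12 protein-coding genes of the mitochondrial genome were left out. Complex I genes with other names are described separately.

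Binding of F52B5.7 to chromatin was mapped by chromatin immunoprecipitation and sequencing (ChIP-seq) in whole young adult worms, collected 63 h after release of starved L1 larvae. The worms were of 1 strain, OP606, with the unc-119(tm4063) mutation on chromosome III and the integrated transgene wgIs606, from which F52B5.7 is made with a C-terminal GFP and FLAG tag. They are labelled as pooled sexes. An antibody to GFP was used, and 2 biological replicates form the single group. The authors deposited a candidate list of 30000 regions for each replicate and for both pooled, and an optimal list of 1032 regions that passed a comparison of ranks between lists (irreproducible discovery rate, IDR). Each region has a signal value, the authors' own, with no stated scale, and rank 1 is the strongest region of a list. The optimal peaks were ranks 1 to 1032 of the pooled list. An optimal peak need not be strong in both replicates, and 48.6% were among the 1032 strongest regions of both. The read depth behind the lists is unknown, the signal averages all tissues of the animal, and binding of a tagged transgene product in 1 strain need not match that of the native protein. No test was run on these genes. Where a share has bounds beside it, they are 95% exact (Clopper-Pearson) ones, for counting error alone.

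The respiratory chain passes electrons from complexes I and II through coenzyme Q, complex III and cytochrome c to complex IV, which reduces oxygen. The proton gradient that this builds drives ATP synthase, complex V. Most subunits are encoded in the nucleus and a few core subunits in the mitochondrial genome, and in C. elegans loss of several of them slows development and changes lifespan.

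A gene was taken as bound if it had an optimal summit from 1000 bp upstream to 500 bp downstream of one of its annotated transcription start sites (TSSs). Of the 49 genes, 8 were bound (16.3%, 7.32 to 29.7), against 3.0% of all genes. They were cox-5B, cox-6A and cox-5A of complex IV, nduf-2.2, nuo-5 and nduf-9 of complex I, atp-1 of complex V and cyc-2.1, a cytochrome c gene. A further optimal summit lay within 250 bp past the annotated end of 6 genes (12.2%, 4.63 to 24.8), against 1.49% of all genes, a window chosen after the data were seen. These were atp-1, atp-2, cox-5A, cox-6B, cox-6C and nuo-4. Together 12 of the 49 genes had a peak of either kind (24.5%, 13.3 to 38.9, against 4.24% of all genes), and atp-1 and cox-5A had both. Of these 12, cox-6A, cox-5A, nduf-2.2, nduf-9, atp-2, nuo-4 and cox-6B lie on chromosome III, which holds 12 of the 49 genes. None lies on chromosome II or X, which hold 6 and 5 of the 49. Shares of all genes were not counted by chromosome, and the reason for this uneven spread was not tested.

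The genome sequence at a summit, with 50 bp on either side, is shown for peaks on chromosomes III and IV by which the promoter and gene-end groups can be compared, where it lies outside annotated untranslated sequence. Each reads in the direction of the named gene (ce11, RefSeq sequence), and capitals mark matches on either strand to the 6-base motifs described at the end. Upstream windows come first, from chrIII:12905183-12905283 (plus strand) for cox-5A, chrIII:5080873-5080973 (plus) for cox-6A, chrIII:6464345-6464445 (plus) for nduf-2.2, chrIII:3249185-3249285 (minus) for nduf-9 and chrIV:4748502-4748602 (minus) for cyc-2.1.
cox-5A, upstream: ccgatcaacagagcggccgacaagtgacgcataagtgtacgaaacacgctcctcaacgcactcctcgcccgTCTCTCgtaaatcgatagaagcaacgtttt
cox-6A, upstream: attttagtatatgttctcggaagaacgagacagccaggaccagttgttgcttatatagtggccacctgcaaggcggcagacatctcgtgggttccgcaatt
nduf-2.2, upstream: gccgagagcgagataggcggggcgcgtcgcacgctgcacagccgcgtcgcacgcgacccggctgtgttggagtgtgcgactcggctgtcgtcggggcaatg
nduf-9, upstream: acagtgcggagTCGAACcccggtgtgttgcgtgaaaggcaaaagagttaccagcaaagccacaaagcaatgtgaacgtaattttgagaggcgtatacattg
cyc-2.1, upstream: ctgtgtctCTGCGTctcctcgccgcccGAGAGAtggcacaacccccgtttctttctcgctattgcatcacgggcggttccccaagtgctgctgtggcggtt
Windows past gene ends come from chrIII:12906778-12906878 (plus) for cox-5A, chrIII:7155847-7155947 (minus) for nuo-4, chrIV:127715-127815 (plus) for cox-6C and chrIII:2786930-2787030 (plus) for cox-6B.
cox-5A, past the end: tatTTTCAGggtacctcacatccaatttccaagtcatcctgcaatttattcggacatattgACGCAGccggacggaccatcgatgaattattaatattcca
nuo-4, past the end: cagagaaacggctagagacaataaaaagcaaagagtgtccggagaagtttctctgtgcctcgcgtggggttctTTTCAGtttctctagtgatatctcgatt
cox-6C, past the end: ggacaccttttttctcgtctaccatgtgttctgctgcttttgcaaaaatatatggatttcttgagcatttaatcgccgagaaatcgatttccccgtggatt
cox-6B, past the end: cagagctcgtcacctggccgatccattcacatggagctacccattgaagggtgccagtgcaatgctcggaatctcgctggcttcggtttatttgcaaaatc

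Complex IV, the terminal oxidase, held the 3 strongest promoter peaks. All of its members here are small nuclear-encoded subunits that surround the catalytic core, and 3 of 7 were bound (42.9%, 9.90 to 81.6, against 3.0% of all genes). At cox-5B the summit lay at position 9788704 of chromosome I, 21 bp upstream of the TSS. Its signal was 262 in the pooled list, 139.9 in replicate 1 and 126 in replicate 2, at ranks 71, 84 and 107, so both replicates placed it among their strongest regions. Signals of different lists are on different levels, and ranks are compared instead. A second, weaker optimal peak 696 bp upstream (signal 120.3, rank 894) lay nearer to the TSS of tba-1, an alpha-tubulin gene, and ranked 393 in replicate 1 but 12942 in replicate 2. At cox-6A the summit lay 801 bp upstream (chromosome III, 5080923), with a signal of 239.7 and ranks of 105, 114 and 145 in the pooled list, replicate 1 and replicate 2. The small nuclear RNA gene F54D8.7 is within 250 bp of the summit, so a peak of that gene and one of cox-6A cannot be told apart. The cox-5A summit lay 258 bp upstream (chromosome III, 12905233), outside any protein-coding gene, with a signal of 231 (87.0 and 142 in replicates 1 and 2). It ranked 129 in the pooled list, 374 in replicate 1 and 69 in replicate 2, and no other gene had it in its window.

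The other 4 complex IV genes had no optimal promoter peak. The best of them, cox-6B, had a candidate at pooled rank 1167 (signal 109.9), just short of the list. It lay 170 bp upstream of a TSS inside the annotated gene, not upstream of the gene start. Its ranks in replicates 1 and 2 were 3174 and 1427. By contrast cox-4 and cox-7C had only weak candidates, at ranks 17198 and 25254, and cox-6C had none in the pooled list. The annotated span of cox-6B is unusually long (chromosome III, 2699663 to 2786859) and holds 1 further optimal peak, in an intron at 2768793 (rank 842), nearest to the TSS of swsn-3.

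Complex I accepts electrons from NADH, and 3 of its 13 genes chosen by name were bound (23.1%, 5.04 to 53.8, against 3.0% of all genes). Of 19 complex I genes with other names, described below, 1 was bound (5.26%). The share of the 13 fell to 7.69%, or 1 gene, without replicate 2 (nduf-2.2 left). It did so too with each peak given to the nearest TSS alone (nuo-5 left). The nduf-2.2 summit lay 827 bp upstream (chromosome III, 6464395), with a signal of 194 and steady ranks of 214, 229 and 246 in the pooled list and replicates 1 and 2. It was shared with dlc-1, a dynein light chain gene whose TSS is nearer (616 bp), and lay in the annotated noncoding RNA gene T26A5.10. The nuo-5 summit, 24 bp downstream of the TSS (chromosome V, 2698996) in coding sequence, had a signal of 145. This gene encodes a core iron-sulfur subunit, and its peak also lay 129 bp past the end of the neighbouring gene Y45G12B.2. Its replicates differed widely, with ranks of 4456 and 372. The nduf-9 peak (signal 140.3, rank 579, chromosome III, 3249235) had no overlapping candidate in replicate 1 and rank 569 in replicate 2. It was 660 bp upstream of nduf-9, an accessory subunit gene, but at the microRNA gene cel-mir-4936 and 104 bp past the end of Y53G8AL.4.

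In cytochrome c and complex V, 1 gene each was bound. The cyc-2.1 summit lay 103 bp upstream of a TSS (chromosome IV, 4748552), in an intron of a longer transcript, with a signal of 135 and rank 651. Here replicate 1 gave the higher rank (300, against 2227 in replicate 2), and the ciliary gene tctn-1 also had the peak in its window. At atp-1, which encodes the catalytic head's alpha subunit, the summit lay 22 bp downstream of the TSS (chromosome I, 12652299), with a signal of 188. Ranks were 244, 430 and 262 in the pooled list and replicates 1 and 2, and the divergent window of mcrs-1 shared the peak. The complex V share was 14.3% (0.361 to 57.9, against 3.0% of all genes), and 28.6% without replicate 2, where atp-4 was added.

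No gene of complexes II and III or of the assembly group was bound, against 3.0% of all genes. Upper limits of the exact intervals were 52.2% for 5 complex II genes, 41.0% for 7 complex III genes and 36.9% for 8 assembly genes. These counts therefore do not show that the groups differ from the other complexes or from all genes. All 7 complex III genes had a pooled candidate, led by cyc-1, the cytochrome c1 gene, at rank 3473, and none came near the optimal list. In complex II the best was mev-1, a membrane anchor subunit gene, at pooled rank 3169. Its candidate in replicate 2 ranked 654 and its best in replicate 1 only 25133. The copper chaperone gene cox-17 was alike, with rank 564 in replicate 2, none in replicate 1 and 3327 in the pooled list. The ATP synthase subunit gene atp-4 showed the opposite order, 845 in replicate 1 and 6344 in replicate 2. With mev-1 and cox-17 it makes up the 3 unbound genes that reached the 1032 strongest regions of 1 replicate.

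**Figure D1:**
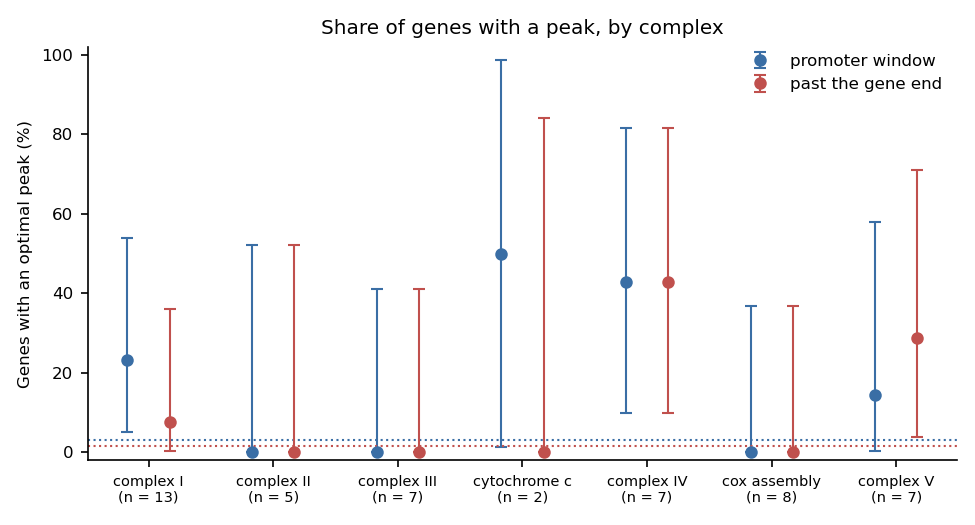
Share of genes with an optimal peak in the promoter window (blue) and within 250 bp past the gene end (red) in each complex; bars are 95% exact intervals and dotted lines the shares over all 19973 genes (3.0% and 1.49%). Complex IV has 42.9% for both kinds of peak, while complexes II and III and the assembly genes have none, with wide intervals. Each complex holds only the genes chosen by name.

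The limit of the optimal list fell close to atp-4. Its candidate, 69 bp downstream of the TSS, had a signal of 114.3 at pooled rank 1038, against 114.6 for the weakest optimal peak. Inside the list, the lowest-ranked gene was cyc-2.1 at 651. At the edge of the window, the nduf-2.2 peak at 827 bp was the farthest upstream, while peaks 1069 bp upstream of cyc-2.1 (rank 66) and 1302 bp upstream of ucr-11 (rank 510) fell outside. Both of those lay nearer to other genes, Y17G9B.5 and tre-1.

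Of the bound genes, 5 ranked among the 1032 strongest regions of both replicates, namely cox-5B, cox-6A, cox-5A, nduf-2.2 and atp-1. That is 10.2% of the 49 genes (3.40 to 22.2), against 1.47% of all genes. The same 5 were the genes bound in the stronger 516 optimal peaks (1.54% of all genes), 3 of complex IV and 1 each of complexes I and V. In the 1032 strongest regions of replicate 2 alone 9 genes were bound (3.05% of all genes), with mev-1 and cox-17 in and cyc-2.1 out. In those of replicate 1 alone 7 were bound (2.61%), with atp-4 in and nuo-5 and nduf-9 out.

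**Figure D2:**
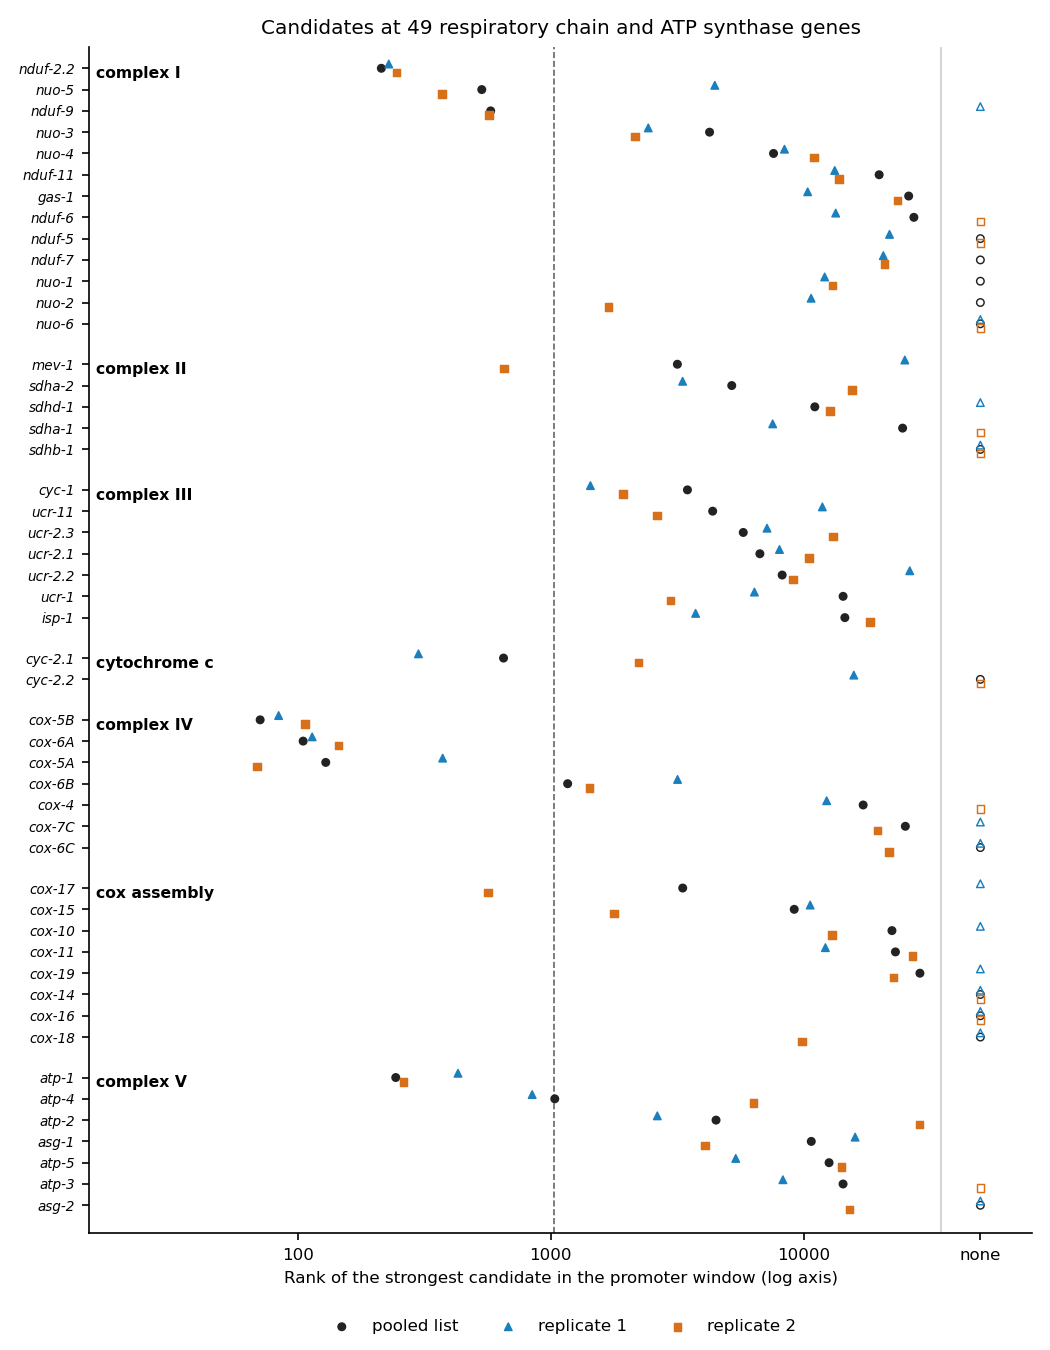
Rank of the strongest candidate in the promoter window of each of the 49 genes (log axis, 1 is strongest; open symbols at the right, no candidate) in the pooled list (circles), replicate 1 (triangles) and replicate 2 (squares). The dashed line is rank 1032, and only cox-5B, cox-6A, cox-5A, nduf-2.2 and atp-1 have all 3 symbols to its left.

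Weaker candidates were also common at these genes. A pooled candidate of any rank lay in the window of 37 of the 49 genes (75.5%, 61.1 to 86.7), against 38.7% of all genes. In replicate 1 the count was 36 (39.5% of all genes) and in replicate 2 it was 39 (40.7%). The median rank of the best candidate was 6717 over those 37 genes and 10883 over all genes with one. Candidates are not calls, since each list was filled to the same length. Of genes with a pooled candidate, 21.6% of the 37 and 7.76% of all 7735 were bound. In 4 genes, nuo-6, sdhb-1, cox-14 and cox-16, no list held a candidate.

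Closely related genes differed in rank. Both gas-1 and nduf-2.2 encode the same core subunit of complex I, and their best pooled ranks were 26029 and 214. The peak at rank 214 lay nearer to the TSS of dlc-1 (616 bp) than to that of nduf-2.2 (827 bp), and in T26A5.10. This contrast may therefore not be one between the 2 subunit genes. Of the 2 cytochrome c genes, cyc-2.2 had no pooled candidate while cyc-2.1 ranked 651. The flavoprotein genes of complex II, sdha-1 and sdha-2, stood at 24632 and 5199, and the 3 ucr-2 genes lay closer together, between 5773 and 8227.

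Where the promoter peaks lay varied among the 8 genes. The strongest summit of each lay upstream in 6, at a median of -180.5 bp, against -227.5 bp and 74.2% upstream for the 600 bound genes of the genome. Within 50 bp of the TSS lay 3 of the 8 (cox-5B, atp-1 and nuo-5), against 10.0% of the 600. The median signal was 191, against 148 for the 600. Of the 9 promoter peaks, 5 also served another gene, against 20.7% of all 502 promoter peaks. With each peak given to the nearest TSS alone, 6 genes stayed bound (2.45% of all genes) and nduf-2.2 and nduf-9 did not. Many worm transcripts are trans-spliced, so annotated TSSs can lie downstream of the true ones.

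**Figure D3:**
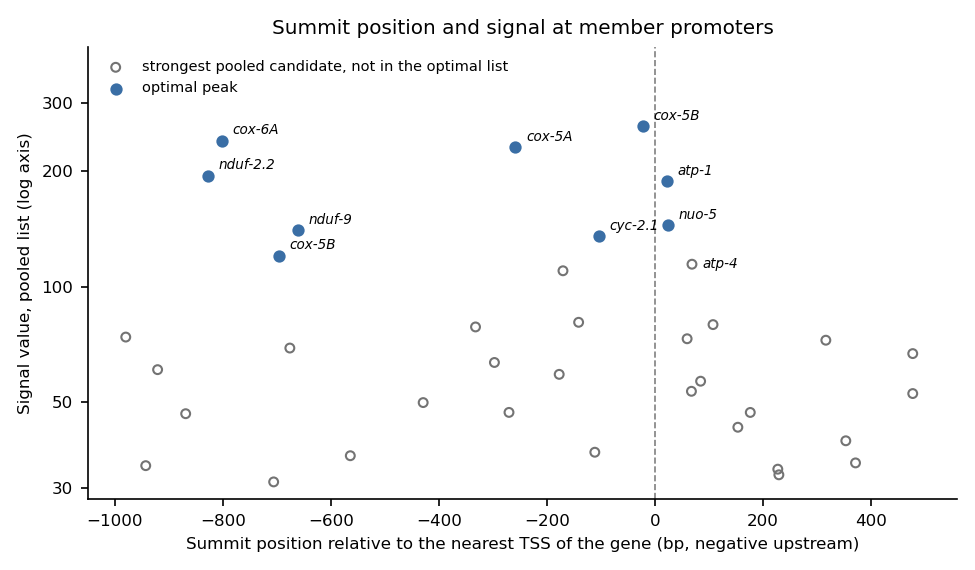
Position of summits relative to the nearest TSS of the gene (bp) and pooled signal value (log axis) for optimal peaks (filled) and the strongest pooled candidate of unbound genes (open). Filled points fall near the TSS (cox-5B, atp-1, nuo-5, cyc-2.1), at -258 bp (cox-5A) or between -660 and -827 bp, and atp-4 lies just below the weakest optimal signal of 114.6.

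The strongest of all peaks at the 49 genes lay 73 bp past the end of atp-2, which encodes the beta subunit of ATP synthase (chromosome III, summit 5230609). Its signal was 321, and 152 and 179 in replicates 1 and 2, at ranks 34, 58 and 25, while the promoter window of atp-2 held only a candidate at rank 4506. The next gene on the same strand, prmt-5, begins 19 bp past the end of atp-2. This summit is therefore also inside prmt-5, 39 bp downstream of the nearest prmt-5 TSS. At atp-1 the summit lay 115 bp past the end (chromosome I, 12654770) with a signal of 299.9, above that of its promoter peak, and ranks of 46, 126 and 26. The nearest TSS was 1248 bp away, and the gene ahead, T26E3.7, runs towards atp-1, so the peak sits between converging ends. Both genes encode the head of ATP synthase, where ATP is made.

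The other 4 were weaker. The cox-5A summit lay 209 bp past the end, weaker than its promoter peak (signal 167, ranks 342, 882 and 260). The nuo-4 summit lay 129 bp past the end of this complex I accessory subunit gene (signal 154, ranks 441, 1184 and 276), whereas its promoter candidate ranked 7606. At cox-6C, which had no pooled promoter candidate, the summit lay 125 bp past the end (signal 129, ranks 751, 2476 and 437). In these 3 genes the next gene was on the same strand and 2229 to 4776 bp away, and no protein-coding TSS lay within 1000 bp of the summit. The cox-6B summit, 121 bp past the end (signal 120.0, ranks 904, 1025 and 927), was again 128 bp inside the next gene on the strand. That gene is nduc-2, which encodes a complex I subunit, so the peak joins 2 genes of the chain. Both replicates held 4 of the 6 peaks among their 1032 strongest regions, and 48.6% of all optimal peaks.

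The same window was common among optimal peaks at large. Of the 1032 summits, 277 (26.8%) lay within 250 bp past the end of a protein-coding gene, against 7.57% of the other pooled candidates. Within 250 bp before an end lay 9.21% of optimal summits and 5.02% of the other candidates, and none of them at the 49 genes (0 to 7.25%; 0.481% of all genes). Median distance past the end was 123 bp over the 6 genes and 141 bp over the 298 genes with such a peak. Among optimal peaks with no TSS within 1000 bp, 23.9% of 443 lay past a gene end. Restricted to those, 4 of the 49 genes remained (atp-1, cox-5A, cox-6C and nuo-4), against 0.596% of all genes. A pooled candidate of any rank lay past the end of 19 of the 49 genes (38.8%), against 12.6% of all genes. Those short of the optimal list included atp-4 (rank 1246), isp-1 (1488) and cyc-2.1 (1812). Reads were not used here, so the shape of the signal across these genes was not examined.

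**Figure D4:**
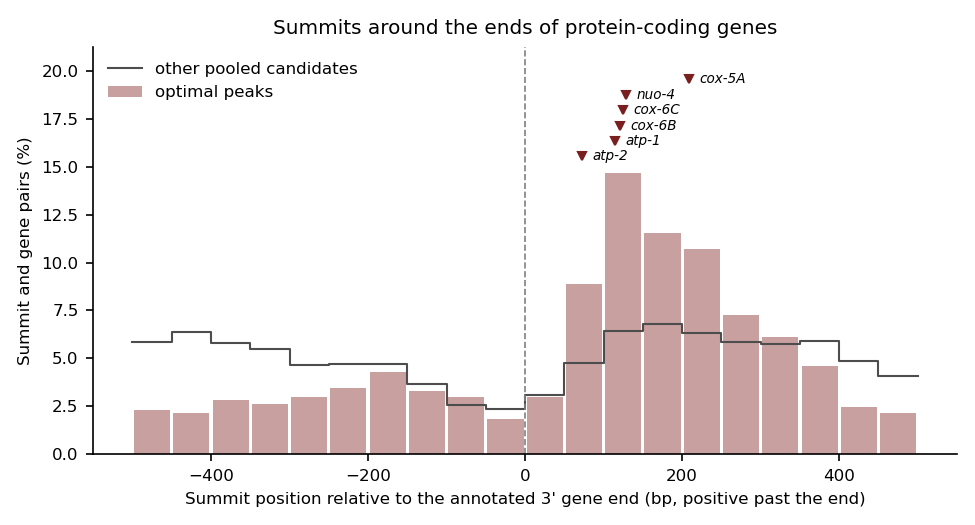
Summit position relative to the annotated gene end (bp, positive past the end) as a percentage of all summit and gene pairs within 500 bp, for optimal peaks (bars) and the other pooled candidates (line). Optimal summits are most frequent from 100 to 150 bp past the end (14.7%, against 6.44% of other candidates), and triangles mark the 6 respiratory genes, from atp-2 at 73 bp to cox-5A at 209 bp, with heights that carry no value.

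Related mitochondrial pathways were counted the same way, to be read against 3.0% of all genes for promoter peaks and 1.49% for peaks past an end, and differences between lists were not tested. Of 21 genes of the tricarboxylic acid cycle and pyruvate dehydrogenase, dlst-1 alone had a promoter peak (4.76%, 0.120 to 23.8), at rank 935, a share near that of all genes. Past their ends, the citrate synthase gene cts-1 (120 bp, rank 194) and the aconitase gene aco-2 (70 bp, rank 213) had peaks (9.52% of the 21). The nearest TSSs to these summits were those of best-18 (684 bp) and C06G4.4 (287 bp). Of 8 coenzyme Q synthesis genes, clk-1, a hydroxylase gene, was bound (12.5%, 0.316 to 52.7, rank 968). Among 70 mitochondrial ribosomal protein genes 4 were bound (5.71%, 1.58 to 14.0), mrpl-23, mrpl-41, mrpl-50 and mrps-30, and mrpl-40 had a peak past its end (1.43%). Both of these shares were near those of all genes. None of 13 carriers and assembly factors outside the name rule or of 13 import genes had a promoter peak (each 0 to 24.7%). The adenine nucleotide translocase gene ant-1.1, which exports the ATP made by complex V, had a peak 74 bp past its end at rank 55, 94 bp from the TSS of kel-3. The import channel gene timm-23 had one 133 bp past its end (rank 699). Each of ant-1.1 and timm-23 makes up 7.69% of its list. Of the mitochondrial chaperone genes hsp-6 and hsp-60, hsp-60 had both kinds, at ranks 70 and 120, the first nearer to Y22D7AL.10. Of 19 further complex I genes, named ndua, ndub, nduc, ndus or nduv and listed after the data were seen, nduc-2 alone was bound (5.26%, 0.133 to 26.0), through the peak it shares with cox-6B, again near the share of all genes.

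The windows printed above, and those not printed, were searched on both strands for 5 motifs, 2 of them taken from earlier results of these data. GTTCGA, found in the internal promoter of tRNA genes, was in 1 of the 9 promoter summit windows, that of nduf-9, against 12.6% of all optimal summit windows. The letters ACGCAG were in 1, that of cyc-2.1 (10.5%). The repeat GAGAGA was in 3, cox-5A and cyc-2.1 among them (33.3%, 7.49 to 70.1, against 16.6%). The TATA-like TATAAA was in none of the 9 (5.62%). Past gene ends, GTTCGA and GAGAGA were in 0 of 6 windows, and ACGCAG and TATAAA in 1 each. The letters TTTCAG of worm 3′ splice sites were in 3 of these 6, cox-5A and nuo-4 among them, against 9.01% of all optimal summit windows. Of the 9 promoter summit windows, 1 held TTTCAG. The 300 bp from 250 bp before to 50 bp after the most upstream TSS held these letters in 59.2% of the 49 genes and 51.7% of all genes, and GTTCGA in 2.04% and 9.84%. The median GC content was 54.5% in the 9 promoter summit windows, with nduf-2.2 highest at 71.3%, and 44.1% in the 6 past gene ends, against 49.5% over all optimal summits. With so few windows these are descriptions, and a match is not a binding site.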

How the data were processed

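Peak lists were analysed from 2 biological replicates of 1 group. Per the submitters' manifests, candidates came from the alignments of each replicate, or of both, with a control, and the optimal list from comparing these by IDR. Of the aligner, peak caller, versions and IDR threshold, none is named in the labels or files used. The score used is the signal value the authors deposited per region, with no stated scale. Summits were placed on ce11 with Ensembl release 115 gene models, RefSeq WBcel235 sequence (the same assembly, with chromosome lengths that hold every region) and scripts in Python 3.11.15 with pandas 2.3.3 and scipy 1.17.1. No coordinates were converted. Each of the 15 peaks at these genes matched 1 region of the ce10 optimal list by chromosome, width, summit offset and signal within 0.001%. Short noncoding RNA genes within 250 bp of a summit were noted. Window assignment was tested on simulated data.

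The genes and lists were chosen with earlier results of these data known, and the gene-end window and its alternatives after the data were seen. Named were all bound genes, unbound genes in the strongest regions of a replicate, the best unbound gene of a complex, those at the limits, and genes or RNA genes sharing a peak; others illustrate gene ends, related genes or counts of 5 or fewer. Alternatives left out a replicate or changed the threshold, window, TSS or assignment. Genes are not replicates, and depth is unknown.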

Additional observations from a re-analysis of the deposited data

How the results depend on the processing

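No paired analysis was possible because only 1 group was sampled and no test was run. The count of 8 bound genes went to 5 in the stronger 516 optimal peaks, to 5 with 500 bp upstream (2.23% of all genes) and to 4 with 250 bp on either side (1.34%). The peaks serving them went from 9 to 5, 5 and 4. Without 1 replicate the number of bound genes ranged from 7 to 9, and in the other 7 alternatives from 6 to 10, with 6 when peaks near short noncoding RNA genes were left out (cox-6A and nduf-9 lost, 2.50% of all genes). In every alternative that kept all 49 genes, their share stood above that of all genes. The alternatives reuse the same 2 replicates, so they are not separate support. The cytochrome c share, which rests on cyc-2.1 alone, was 50% and became 0% without replicate 1. Without replicate 1, complex II went from 0% to 20.0% (mev-1) and the assembly genes from 0% to 12.5% (cox-17). Without replicate 2, complex I went from 23.1% to 7.69% and complex V from 14.3% to 28.6%. With 500 bp upstream, complex I was at 7.69% and complex IV at 28.6%. The 37 genes with a pooled candidate became 21 with 250 bp on either side, while the share of all genes also fell, from 38.7% to 21.1%. The median rank of the best candidate, 6717, became 8704.5 with 500 bp upstream and 7787.5 to 9067 with 1 replicate, and stayed below the median over all genes. GTTCGA was in 11.1% of promoter summit windows and in 0% of the TSS windows of the bound genes. The 6 genes with a peak past their end numbered 4 to 6 in the alternatives, all chosen after the data were seen; without replicate 2 they were 5, with cyc-2.1 in and nuo-4 and cox-6C out. The cause of these shifts was not tested.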
